A study of Mus musculus with 13 samples.

Results

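The cells described here are the barcodes that a rule on raw unique molecular identifiers (UMIs, 1 per captured RNA molecule) selects as type 2 conventional dendritic cells: 581 of 118892 barcodes that passed the quality limits, 571 of them from tumors and 10 from mucosa. They were chosen by their UMI counts of a few genes: a barcode was taken if it carried at least 1 UMI of Flt3, the receptor for the cytokine that drives dendritic cell development, and at least 5 UMIs of H2-Aa, an MHC class II chain. It also had to carry no UMI of Xcr1, Clec9a, Fscn1, Siglech, Cd3e or Cd79a, which mark type 1, mature and plasmacytoid dendritic cells, T cells and B cells, and fewer than 20 UMIs of the macrophage complement genes C1qa, C1qb and C1qc together. The markers given with the rule, Cd209a, Cst3 and Zbtb46, were all detected, but the cells were mixed. Of 9 clusters among them, 1 was led by Cd209a and Clec10a, while others were led by genes of type 1 dendritic cells, mature dendritic cells, monocytes and macrophages, neutrophils or epithelium. They are therefore called the Flt3 and H2-Aa gated cells, or gated cells, below.

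The study characterized colon tumors of ApcMin/+; p16cis/cis mice on a C57BL/6J background, which carry a truncating mutation of the tumor suppressor gene Apc together with an engineered silencing of the p16 promoter. All 13 libraries came from 3 such mice kept on an NIH-31 diet supplemented with choline, betaine, folic acid and vitamin B12, so the genotypes and the diet were shared by tumors and mucosa, and no library of mice on the control diet was analysed here. Mouse A (24 weeks old) gave tumors 5 to 8 and mucosa 2, mouse B (23 weeks) gave tumors 9 and 10 and mucosa 3, and mouse C (20 weeks) gave tumors 1 to 4 and mucosa 1. Tumors were dissociated with a tumor dissociation kit and adjacent mucosa with EDTA and TrypLE, so tissue and dissociation cannot be told apart.

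Conventional dendritic cells take up antigen in a tissue, carry it to the draining lymph node on the chemokine receptor Ccr7 and present it to T cells on MHC molecules. Type 1 cells, which need the transcription factors Irf8 and Batf3, are known for presenting antigen to CD8 T cells, and type 2 cells, which use Irf4, Klf4 and Notch2 and carry Sirpa and lectins such as Cd209a, Clec10a and Mgl2, for presenting it to CD4 T cells. In the intestine, type 2 cells share several markers with monocyte-derived cells, and conventional dendritic cells of either type switch on a common mature program with Ccr7, Fscn1 and Ccl22 once they are activated.

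The libraries were droplet-based 3' scRNA-seq. Tumor libraries held 7789 to 11862 barcodes with 57221300 to 93157039 UMIs, and mucosa libraries held 6537 to 15049 barcodes with 84883382 to 116133079 UMIs. Among the barcodes kept, the median UMI count was 4029 to 5435.5 in tumors and 8238.5 to 10816 in mucosa. All 13 libraries carried 2 to 10 UMIs of Xist and 6985 to 13134 UMIs of 4 Y-linked genes, although 7 are labelled female and 6 male and the labels give both sexes to libraries of mouse A and of mouse C. The labelled sex was therefore not used. Pairs of libraries shared 14 to 61 barcode sequences, and no barcode was a gated cell in 2 libraries.

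The limits of the rule cut through continuous values, which are given as a description. Flt3 was at exactly 1 UMI in 411 of the 581 cells, at 2 in 111 and at 3 or more in 59, and the median H2-Aa count was 53 (5 to 206). With no UMI of Flt3, 18224 barcodes met every other limit, 6996 in tumors and 11228 in mucosa. Their median H2-Aa count was 12. Just inside the H2-Aa limit, 40 cells held 5 to 9 UMIs, and outside it 88 barcodes held 1 to 4 and 394 held none. Of barcodes that met every other limit, 126 had exactly 1 UMI of Xcr1 and Clec9a together and 271 had 2 or more, with median depths of 10277.5 and 14657 UMIs against 8103 in the gated cells. Likewise, 12 barcodes had exactly 1 UMI of Fscn1 and 264 had 2 or more. For C1q, 27 barcodes had 20 or more UMIs, and 11 gated cells had 5 to 19. The last step, no Cd79a, left 571 of 691 barcodes in tumors but 10 of 50 in mucosa.

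In the tumors, the gated cells held the genes of the class II pathway at high levels. Levels are CPM, a gene's share of the summed UMIs scaled to 1000000, computed over the summed UMIs of the gated cells of a tumor, beside the same over all kept barcodes of the tumor. The MHC class II chain H2-Ab1 stood at 5370 to 7909 CPM over the 10 tumors (median 7323), against 1169 ± 348 (SD, n = 10) in all kept barcodes. Cd74, the invariant chain that guards the class II groove, was at 15483 ± 1785 against 3240 ± 942, and H2-DMa, which loads peptide onto class II, at 710 ± 75.4 against 150 ± 31.6. In each of these, the gated cells were above the whole library in 10 of 10 tumors, which the limit on H2-Aa partly fixes. The share of all genes above the whole library was not computed, so such counts here and below are descriptions only. The summed class II pathway genes spanned 25886 to 37353 CPM. Class I genes were less apart from the library: the light chain gene B2m was above it in 4 of 10 tumors, H2-K1 in 2 and H2-D1 in 1, while the peptide transporter gene Tap1 and the immunoproteasome gene Psmb8 were in 10.

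The markers given with the rule differed in how widely they were shared. Cst3, encoding the protease inhibitor cystatin C, was found in 99.5% of the tumor cells, with a level of 7039 CPM in the lowest tumor, 14060 at the median and 19048 in the highest. In all kept barcodes Cst3 was at 1455 ± 507 CPM (SD, n = 10). Cd209a, a C-type lectin, had a UMI in 22.2% of the cells and a level of 31.0 to 181 CPM (median 84.6), against 2.84 ± 1.46 in all kept barcodes. Zbtb46, a transcription factor of conventional dendritic cells, was found in 13.1% of the cells at 1.66 to 25.3 CPM (median 15.1), against 1.28 ± 0.222. Its low value was in tumor 10, while the other tumors held at least 13.7 CPM. Zbtb46 had 85 UMIs over the 10 tumors together, so its level in a single tumor rests on few molecules. Cst3 was thus found in nearly all of the cells, and Cd209a and Zbtb46 in a minority at this depth. Of the 3, only Cd209a was at least 2-fold higher than in the type 1 gate in every tumor used. The same held against the mature gate, both described below.

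Of the 15 genes on the type 2 list, all had UMIs in the tumor cells. Only Cd209a, Clec10a, Mgl2, Relb and Cd7 were above the whole library in every tumor. Clec10a, a lectin for galactose-type sugars, was at 132 ± 50.7 CPM against 6.52 ± 2.05, and the related Mgl2 at 67.9 ± 48.5 against 7.62 ± 3.06. The NF-kappa-B member Relb was at 89.2 ± 14.7 against 34.1 ± 5.41. In contrast, Sirpa, the inhibitory receptor often used to sort type 2 cells, was at 58.3 ± 21.0 CPM against 61.1 ± 10.9, and was higher in the gated cells in 4 of 10 tumors. The integrin gene Itgam was at 63.0 ± 24.0 against 125 ± 26.3 and was higher in 1 of 10. Of the type 2 factors, Irf4 was higher in 9 of 10 tumors and Klf4 in 6. Notch2, at 25.5 ± 9.19 CPM against 32.6 ± 5.15, was higher in 1. Il1r2 was higher in 9, Clec12a in 7, Clec4a4 in 5, Ltb in 4 and Clec4a2 in 2. A separate list held 9 genes associated with Tbet and Notch2, Clec4a4 and Ltb among them. On it, Esam, a surface marker of Notch2-dependent cells, and the Notch target Dtx1 had no UMI in the 571 cells. Tbx21, which encodes Tbet, was at 10.6 ± 6.16 CPM against 2.11 ± 0.618, and Itgae at 57.0 ± 20.2 against 5.84 ± 0.972. Both were higher in 10 of 10 tumors, while Cd101 was in 5, and Cd4 and Hes1 were in 0.

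Genes of the type 1 and mature lists, beyond those held at 0 by the rule, were present as well. Batf3 stood at 95.3 ± 26.6 CPM in the gated cells against 9.82 ± 2.99 in all kept barcodes, and Irf8 at 246 ± 94.8 against 82.4 ± 16.4. Ccr7 was at 128 to 685 CPM (median 266) and Ccl22, a chemokine that draws regulatory T cells, at 131 ± 66.5, against 37.4 ± 20.8 and 11.7 ± 4.21. Of the same lists, Cadm1 and Cd8a were above all kept barcodes in 0 of 10 tumors and Marcksl1 in 1. Ccl5 was above them in 3, and Il12b and Nudt17 in 4, while the other genes not used by the rule were in at least 7. Markers of other cell types differed in sum. Monocyte markers stood at 1851 to 3322 CPM, close to all kept barcodes (1846 to 3459), and natural killer and innate lymphoid markers at 154 to 349, above them (54.9 to 134). The latter sum rested on Klrk1 and Il7r, while Rora, Klrb1c and Gata3 were above the library in 0, 0 and 1 of 10 tumors and Ncr1 and Il22 were at 0. T cell genes summed to 0 to 55.6 CPM (101 to 355 in all kept barcodes), B and plasma cell genes to 54.7 to 272 (4158 to 18701), macrophage genes to 324 to 1022 (2983 to 6625) and stromal genes to 3.32 to 26.2 (25.8 to 402). The rule's limits on Cd3e, Cd79a and C1q UMIs partly fix the T cell, B cell and macrophage sums. Neutrophil genes reached 290 to 6715 CPM (18370 to 37786 in all kept barcodes) and epithelial genes 58.2 to 2617 (3523 to 7887), with S100a9 the leading neutrophil gene at 1055 ± 955. Without clusters 8 and 9, described below and led by neutrophil and epithelial genes, the difference in share between tumors and mucosa was 0.527 percentage points against 0.559, and 14 genes differed between the mice against 1 (a choice made after seeing the data).

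Clustering of the 581 cells gave 9 clusters, which describe how they differ among themselves. Since the genes define the clusters, no test is given, and values are means over the 3 mice (SD, n = 3) of the CPM over a cluster's cells. The clusters are called by number and leading genes. Counts of list genes at least 2-fold over the other gated cells, with 10 CPM added, stand beside the share of all 6937 genes with at least 50 UMIs that were so, as a description. Clusters 1 to 6 had cells from all 10 tumors.

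**Figure D1:**
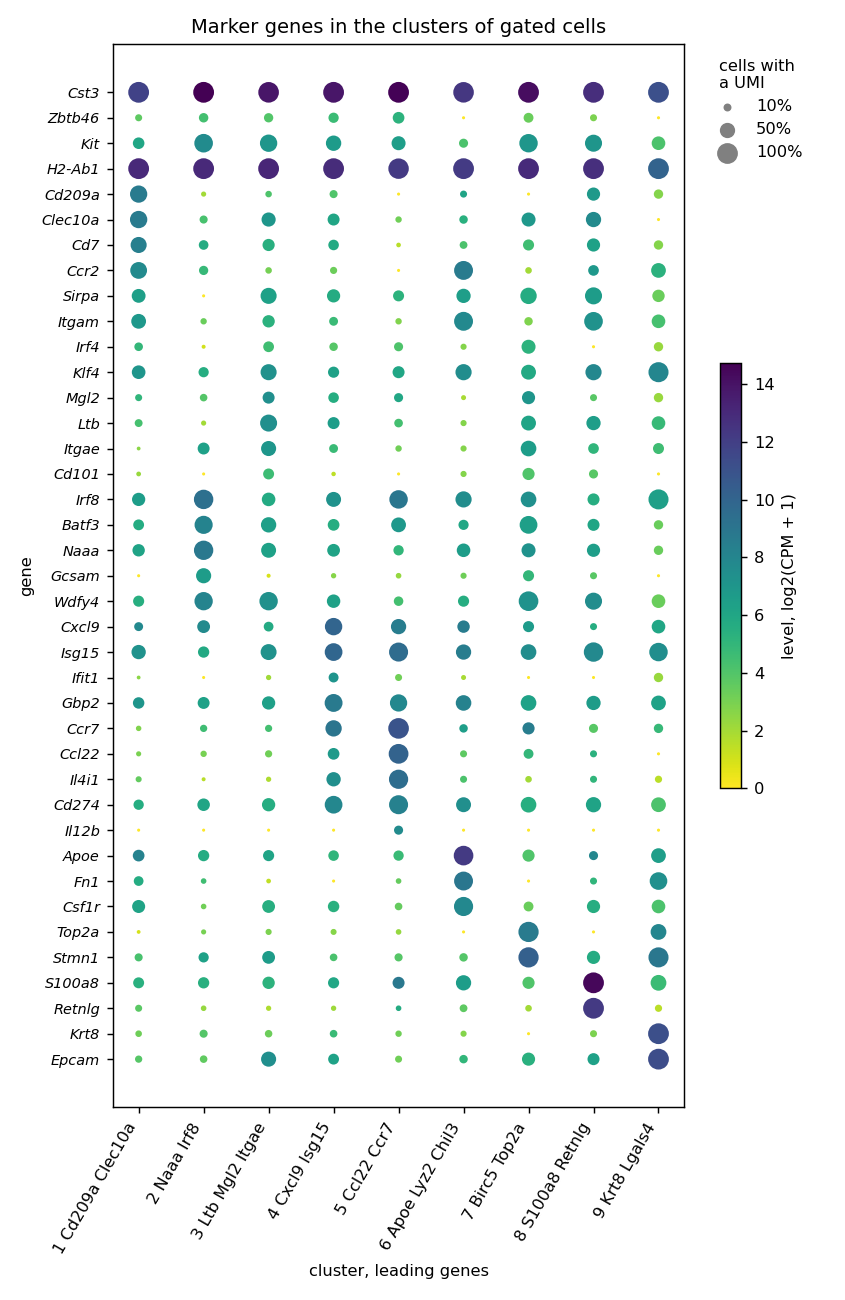
Level (color, log2 of CPM + 1) and share of cells with at least 1 UMI (dot area) of genes mostly from the gene lists, in the 9 clusters of Flt3 and H2-Aa gated cells, named by number and leading genes. Cd209a, Clec10a and Cd7 were concentrated in cluster 1, Naaa and Gcsam in cluster 2, Ccr7 and Ccl22 in cluster 5, and S100a8 and Krt8 in clusters 8 and 9.

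Cluster 1, with 153 cells (26.3%), was led by Cd209a, the T cell surface glycoprotein gene Cd7, Clec4b1 and Clec10a. Cd209a was at 399 ± 25.3 CPM, with a UMI in 66.0% of the cells, and at 0 in the 56 cells of cluster 5, whose median depth was higher (8253.5 against 6776 UMIs). Clec10a reached 421 ± 56.8 CPM and Cd7 334 ± 54.0. Of the type 2 list, 5 of 15 genes were at least 2-fold over the other gated cells, as were 4 of 10 monocyte markers (1.46% of all genes). Ccr2, the receptor that brings monocytes out of the bone marrow, was at 184 ± 73.9 CPM and the Fc receptor gamma chain gene Fcer1g at 2534 ± 405. Cst3 was low here, at 3644 ± 106 CPM against 15009 ± 3719 in cluster 3. The cells with most Cd209a were thus those with least Cst3 among the clusters 1 to 5.

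Cluster 3, with 105 cells (18.1%), was led by Ppp1r1a, the lymphotoxin gene Ltb, Gsg1 and Mgl2. Ltb was at 186 ± 61.6 CPM against 17.0 ± 3.88 in cluster 1, and Mgl2 at 148 ± 118 against 27.0 ± 23.7. Cd209a was at 17.5 ± 7.69 CPM. Itgae, the integrin chain CD103 that binds E-cadherin, was at 130 ± 37.2 CPM against 6.16 ± 10.7 in cluster 1, and Cd101, found on intestinal type 2 cells, at 23.4 ± 8.52. Of the type 2 list, 2 of 15 genes were at least 2-fold over the other gated cells (0.923% of all genes). Sirpa was at 85.9 ± 19.9 CPM, and H2-Oa and H2-DMb2 of the class II pathway at 304 ± 49.8 and 284 ± 17.2. The adhesion genes Epcam and Cdh1 were found in 48.6% and 41.9% of these cells and the keratin gene Krt8 in 8.57%, against 7.14%, 3.57% and 5.36% of cluster 5, which was less deep (median 8253.5 against 11688 UMIs). As levels, Epcam was at 163 ± 25.2 CPM in cluster 3 and 8.89 ± 4.14 in cluster 5, and Krt8 at 8.77 ± 6.31 and 10.3 ± 9.01. The part of free epithelial RNA was not tested. The type 2 list did not mark clusters 1 and 3 alone. Of its 15 genes, 3 were 2-fold over the other gated cells in cluster 6 (4.64% of all genes), 3 in cluster 8 (4.41%) and 2 in cluster 7 (2.62%). In clusters 5 (4.90%) and 9 (15.8%) 1 was.

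Cluster 2, with 114 cells (19.6%), was led by Gcsam, Rab7b and Naaa, and 8 of 10 type 1 markers not used by the rule were at least 2-fold over the other gated cells (1.3% of all genes), against 0 of 15 type 2 genes. Irf8 stood at 645 ± 233 CPM, Batf3 at 256 ± 97.8 and Naaa, an acid amidase, at 441 ± 24.8. Sirpa had no UMI in the 114 cells, and Cd209a was at 3.00 ± 2.80 CPM. The type 1 gate, which needs Xcr1 or Clec9a, held Irf8 at 664 ± 66.6, Batf3 at 232 ± 9.23 and Naaa at 715 ± 64.2 CPM (SD, n = 3 mice). Ppt1, a lysosomal thioesterase gene of the same list, was at 203 ± 17.1 CPM in cluster 2 against 401 ± 48.2 in the type 1 gate, and Cadm1 at 5.55 ± 6.11 against 86.9 ± 18.9. Cluster 2 thus held some type 1 genes at levels close to the type 1 gate and others, Cadm1 above all, well below it.

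The leading genes of cluster 4 included interferon-stimulated genes and those of cluster 5 mature markers, and activation was not tested. Cluster 4, with 67 cells (11.5%), was led by Cxcl9, a chemokine induced by interferon-gamma, at 1094 ± 297 CPM, and also held the interferon-stimulated genes Isg15 at 1035 ± 421 and Gbp2 at 430 ± 64.1. Cluster 5, with 56 cells (9.64%), was led by Ccl22, at 1108 ± 496 CPM, Il4i1, an amino acid oxidase, at 734 ± 147, and Ccr7, at 2093 ± 271 and found in 98.2% of its cells. All 15 mature markers not used by the rule were at least 2-fold over the other gated cells in cluster 5 (4.9% of all genes), among them Cd274, encoding PD-L1, at 347 ± 93.0 CPM, and 6 of 15 were in cluster 4 (1.46%). Il12b, a subunit of interleukin 12, had UMIs in cluster 5 and in no other cluster, in 14.3% of its cells, and over all gated cells its level was 165 CPM in tumor 8 and at most 15.2 in any other tumor. H2-DMa was at 192 ± 66.8 CPM in cluster 5 and at 1017 ± 27.3 in cluster 1. The mature gate, which needs Fscn1 and Ccr7, held Il4i1 at 834 ± 108 CPM.

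Cluster 6, with 42 cells (7.23%), was led by Chil3, Apoe and Thbs1, with 8 of 12 macrophage and 8 of 10 monocyte markers at least 2-fold over the other gated cells (4.64% of all genes). Apoe, a lipid carrier of macrophages, was at 4949 ± 837 CPM and the growth factor receptor Csf1r at 224 ± 58.2. Its median H2-Aa count was 18, against 49 in cluster 1, Zbtb46 had no UMI, and 9 of its cells were among the highest doublet scores. Among the small clusters, cluster 7 (17 cells, median 19210 UMIs) was led by histone and cell division genes such as Birc5, at 627 ± 211 CPM. Cluster 8 (14 cells, all among the highest doublet scores) was led by the neutrophil genes S100a8, at 23257 ± 8031 CPM, and Retnlg. Cluster 9 (13 cells, median 34971 UMIs, 7 among the highest doublet scores) was led by epithelial genes such as Lgals4 and Krt8. In all, 35 of the 571 tumor cells and none of the 10 mucosa cells had a doublet score among the highest of their library.

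**Figure D2:**
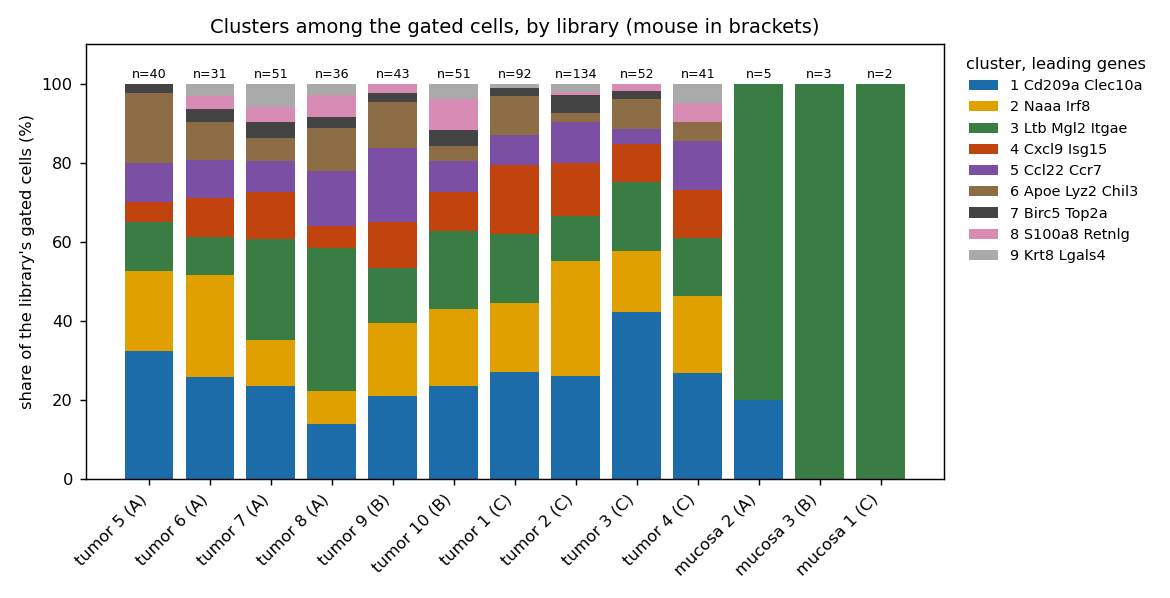
Share (%) of each library's gated cells in the 9 clusters, as stacked bars with the number of gated cells above, ordered by tissue and mouse. Clusters 1 to 6 appear in every tumor, and 9 of the 10 mucosa cells lie in cluster 3.

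The make-up of the gated cells varied between tumors. Cluster 1 took 13.9% to 42.3% of a tumor's gated cells, lowest in tumor 8 and highest in tumor 3, cluster 2 took 8.33% to 29.1%, and cluster 3 took 9.68% to 36.1%, highest in tumor 8. Cluster 4 took 5.00% to 17.4%, cluster 5 took 3.85% to 18.6% and cluster 6 took 2.24% to 17.5%. With 31 to 134 cells a tumor, these shares carry wide counting errors, and they were not tested. Other settings gave 6 to 12 clusters. Cluster 4 was the least stable of the clusters 1 to 6, with 46.3%, 52.2% and 56.7% of its cells together in 3 of 5 settings, and 45.1% of cluster 1 stayed together at the higher resolution.

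The 10 mucosa cells are given as counts. Their depth was 1933 to 13494 UMIs, and 9 fell in cluster 3 and 1 in cluster 1. None had a UMI of Cd209a, Mgl2, Clec10a, Itgam or Ccr2. Ltb was found in 5 of the 10, Itgae in 3, Sirpa in 2 and Zbtb46 in 2. Epcam was found in 9, while Krt8 was at 1 UMI at most. Lgals4, of the same epithelial list, reached 3 UMIs in a cell of mucosa 2 and was at 1 at most in the others. That cell had 2558 UMIs and a mitochondrial share of 11.4%. It and the cell of mucosa 2 with 1933 UMIs had no UMI of the leukocyte gene Ptprc. Ighm, the heavy chain gene of B cells, was found in 6 of the 10, against 17.3% of the tumor cells, and Ly6d had 16 UMIs in 1 cell, while Cd79b, Ms4a1 and Jchain had none. No difference in genes between tumor and mucosa was tested, since each mucosa library had 5 or fewer gated cells.

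**Figure D3:**
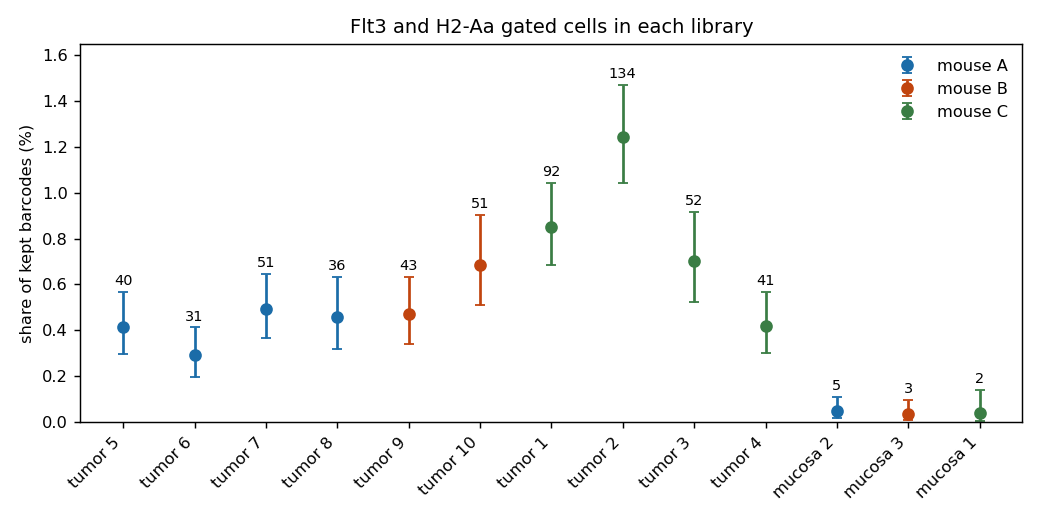
Share (%) of kept barcodes that are Flt3 and H2-Aa gated cells in each library, with exact 95% binomial intervals for counting error, colored by mouse and with the number of gated cells above each point. The 10 tumors lie between 0.291% and 1.24%, and the 3 mucosa samples between 0.0328% and 0.0468%.

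Gated cells were more frequent in tumors than in mucosa. They were 0.291% of kept barcodes in tumor 6, the lowest, and 1.24% in tumor 2, the highest (median 0.481%), against 0.0386%, 0.0468% and 0.0328% in mucosa 1, 2 and 3, with exact Clopper-Pearson upper limits of 0.139%, 0.109% and 0.0958%. Every tumor was above every mucosa sample. The mean of a mouse's tumors lay above its mucosa by 0.367 percentage points for mouse A, by 0.545 for mouse B and by 0.765 for mouse C, on average by 0.559 ± 0.199 (SD, n = 3). When the mucosa label was exchanged among the libraries of a mouse, the exact permutation p (two-sided) was 0.0133, the smallest that 75 assignments allow, and 0.0267 after Benjamini-Hochberg adjustment over 2 share tests. The rule was noted as finding mostly tumor cells when it was proposed, so this direction was known.

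The size of that difference depended on the denominator and on which cells counted. Before the limit on Cd79a, 691 tumor and 50 mucosa barcodes met the rule, and after it 571 and 10. No alternative relaxed this limit. Among barcodes with a UMI of Ptprc, the leukocyte gene for CD45, the gated cells were 0.322% to 1.68% in tumors and 0.104% to 0.213% in mucosa. With 12525 tumor and 4296 mucosa barcodes under 2000 UMIs left out and the others thinned to 2000, 271 tumor and 4 mucosa cells met the rule and the difference was 0.311 percentage points (exact permutation p 0.0133). Without clusters 2, 5, 6, 8 and 9, a choice made after their genes were seen, 332 tumor cells (0.141% to 0.687%) and 10 mucosa cells remained.

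The share of gated cells did not pass the test between the mice. It was 0.414% ± 0.0879 in the 4 tumors of mouse A, 0.578% ± 0.154 in the 2 of mouse B and 0.804% ± 0.344 in the 4 of mouse C (SD). The ranges overlapped, and an exact permutation test of the F statistic over 3150 arrangements gave F = 2.66 and p = 0.126, also after adjustment. The call changed under 2 alternatives, with an exact permutation p of 0.0444 (F = 4.20) when barcodes under 2000 UMIs were left out and the others thinned to 2000, and of 0.0254 (F = 6.83) without tumor 4. Among the cells of the 3 dendritic gates (gated, type 1 and mature), the gated cells were 29.3% to 51.0% in tumors (median 42.5%). In mucosa these gates held 10, 8 and 3 cells, too few for the same test.

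Next, the gated cells were set against 4 other gates of the same tumors, with genes used by any gate left out. The type 1 gate (268 tumor cells) needs at least 2 UMIs of Xcr1 and Clec9a, the mature gate (541) at least 2 of Fscn1 and 1 of Ccr7, the monocyte gate (2497) Ly6c2 and Csf1r without Flt3, and the macrophage gate (5602) at least 20 C1q UMIs without Flt3. All but the monocyte gate also need 5 UMIs of H2-Aa, and the type 1 gate needs Flt3, as the gated cells do. A gene counts as higher or lower if its fold, of CPM plus 1, is at least 2 in every tumor in which both gates have 20 cells. The gates were set by measured UMIs, so these are descriptions with no test, and folds of genes near 0 are understated by the added 1 CPM.

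**Figure D4:**
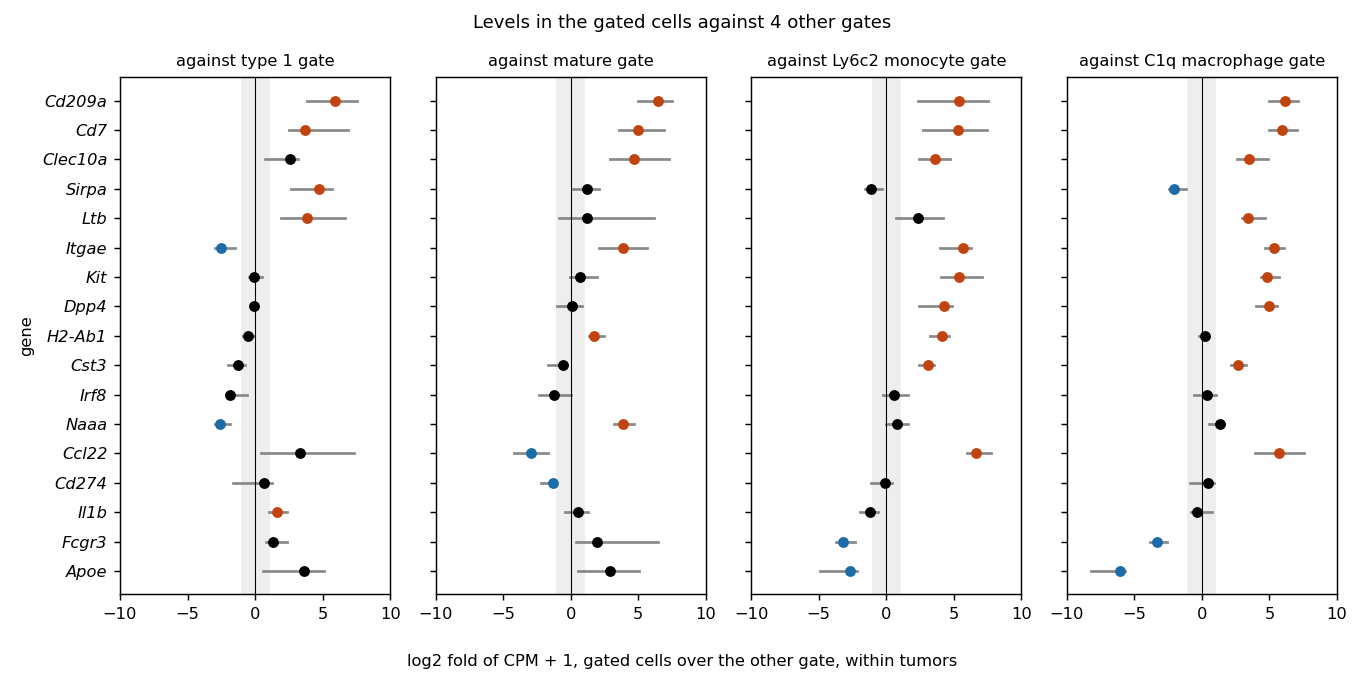
Log2 fold of CPM + 1 of selected genes in the gated cells over 4 other gates within tumors (7 tumors for the type 1 gate, 10 for the others). Points are medians and lines run from the lowest to the highest tumor, red and blue mark at least 2-fold higher or lower in every tumor used, and the grey band spans a fold of 2. Cd209a lies to the right in all 4 panels, while the whole range of Sirpa lies to the right of the band only against the type 1 gate.

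Against the type 1 gate, 133 of 7642 genes (1.74%) were higher in the gated cells and 50 (0.654%) lower in all 7 tumors used. Of the type 2 list, 9 of 14 measured genes were higher and 1 was lower, with a median log2 fold of 2.85 against 0.05 over all genes. The median was 3.57 for monocyte markers (1 of 9 higher), 2.74 for macrophage markers (1 of 5) and 2.22 for epithelial markers (1 of 6). It was 1.87 for mature markers (3 of 13) and 0.12 for neutrophil markers (0 of 7). Sirpa was at 62.0 ± 24.4 CPM against 3.18 ± 3.66 (SD, n = 7), Irf4 at 15.6 ± 6.66 against 0.650 ± 1.18 and Itgam at 64.3 ± 28.9 against 5.84 ± 3.41. Clec12a, a lectin on the same list, was the lower one, at 16.6 ± 4.68 against 53.7 ± 19.8. Of the type 1 markers, 7 of 9 were lower, among them the adhesion gene Cadm1, at 2.41 ± 2.47 against 88.0 ± 31.1 CPM, and Tlr3, a sensor of double-stranded RNA, at 11.4 ± 7.61 against 80.5 ± 17.1. Of 9 measured cytokine genes, Il1b, Il1rn and Osm were higher, Il1b at 2004 ± 433 against 660 ± 209. The interleukin 7 receptor gene Il7r, at 106 ± 32.8 against 1.61 ± 2.32, and Il4i1, at 90.0 ± 42.5 against 0.734 ± 1.94, were among the genes with the largest difference. Il4i1 was mostly in cluster 5, at 746 CPM against 25.2 in the other gated cells.

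Both gates were selected on H2-Aa, which partly fixes their class II levels. None of 12 measured class II genes was 2-fold apart in every tumor, and H2-Ab1 stood at 7108 ± 896 CPM in the gated cells and 9953 ± 1249 in the type 1 gate. The stem cell factor receptor Kit, at 67.2 to 149 against 87.3 to 140 CPM, and Dpp4, at 67.5 ± 16.9 against 70.5 ± 12.8, were at similar levels, with folds of 0.744 to 1.45 and 0.792 to 1.09. Itgae was lower, at 51.1 ± 15.7 against 263 ± 67.9 CPM.

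Against the mature gate, 184 of 8484 genes (2.17%) were higher and 182 (2.15%) lower in all 10 tumors. Of the type 2 list, 5 of 14 measured genes were higher, Relb was lower and 8 were neither, with a median log2 fold of 1.79. The median was 2.82 for monocyte markers (3 of 9 higher), 2.69 for macrophage markers (2 of 7) and 2.59 for Fc receptors (3 of 6). It was 0.73 for neutrophil markers (0 of 7) and 0.56 for epithelial markers (0 of 7). Cd209a was at 94.9 ± 45.7 CPM in the gated cells and had no UMI in the mature gate of any tumor, and Clec10a was at 132 ± 50.7 against 6.47 ± 5.92. Tlr3, Naaa and Wdfy4 of the type 1 list were higher too, Wdfy4 at 120 ± 22.8 against 9.52 ± 4.22. Class II genes were higher for 4 of 12 measured, H2-DMb1 at 511 ± 75.7 against 52.1 ± 18.0 CPM. Of the mature markers, 10 of 14 were lower, with a median log2 fold of −2.84 against 0.14 over all genes. Cd200, an inhibitory ligand, was at 41.9 ± 33.0 against 451 ± 92.3 CPM, and Cd274 at 107 ± 46.6 against 280 ± 79.6. Tnfrsf4, encoding OX40, was at 1.47 ± 1.89 against 165 ± 31.1.

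Against the Ly6c2 monocyte gate, 197 of 10127 genes (1.95%) were higher and 261 (2.58%) lower. The class II pathway gave 9 of 12 measured genes higher, with a median log2 fold of 3.16 against 0.14 over all genes, which the H2-Aa limit on the gated cells alone bears on. Ciita, the activator of class II genes, was at 97.9 ± 19.1 against 13.9 ± 3.70 CPM. Klrd1 and Klrk1, which encode lectin-like receptors known from natural killer cells, were among the 10 genes with the largest lowest fold, Klrd1 at 458 ± 127 against 2.99 ± 3.83 CPM. Of the natural killer and innate lymphoid list, which holds Klrk1 alone of the pair, 2 of 3 measured genes were higher. Type 2 genes were divided: Cd209a, Clec10a, Mgl2, Relb and Cd7 were the 5 of 14 that were higher, and Itgam, Clec4a2 and Clec12a were lower, Itgam at 63.0 ± 24.0 against 322 ± 35.0 CPM. Of 15 cytokine genes 6 were lower and none higher, among them Tnf, at 24.2 ± 9.51 against 90.5 ± 40.3, and Il1a, at 26.4 ± 28.3 against 304 ± 85.4. Macrophage markers were lower for 7 of 10 measured and neutrophil markers for 5 of 7, with median log2 folds of −3.00 and −3.50. Epithelial markers were lower for 0 of 7. Of 6 Fc receptor genes 5 were lower, and Fcgrt, the neonatal Fc receptor, was higher, at 88.6 ± 26.5 against 8.86 ± 2.63.

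Against the C1q macrophage gate, 162 of 12383 genes (1.31%) were higher and 364 (2.94%) lower. All 11 measured macrophage markers were lower, with a median log2 fold of −5.13 against −0.18 over all genes, among them Mertk, an engulfment receptor, at 0.160 ± 0.506 against 49.8 ± 11.3 CPM. Kit was higher, at 108 ± 27.4 against 2.79 ± 1.09, as were Itgae, at 57.0 ± 20.2 against 0.359 ± 0.265, and Btla, an inhibitory receptor, at 25.4 to 56.4 against 0 to 0.515. Class II levels overlapped, with H2-Ab1 at 7092 ± 837 against 6015 ± 571 CPM, but H2-DMb2, H2-Oa and H2-Ob were the 3 of 12 measured that were higher, H2-Oa at 135 ± 21.5 against 5.13 ± 1.43. Lgmn, a lysosomal protease that cuts antigen, was the 1 that was lower, at 97.1 ± 26.8 against 880 ± 86.3 CPM. Of 14 measured type 2 genes, Cd209a, Clec10a, Ltb and Cd7 were higher and Sirpa, Itgam and Clec4a2 lower, with a median log2 fold of 0.60. The median was 1.33 for type 1 markers (4 of 9 higher, 1 lower) and 1.19 for mature markers (4 of 13 higher, 0 lower). Cd209a was at 94.9 ± 45.7 against 0.149 ± 0.226 CPM, and Sirpa at 58.3 ± 21.0 against 230 ± 43.9. Il1b, at 2139 ± 505 against 2426 ± 458, was not 2-fold apart in every tumor.

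Finally, the gated cells of the 10 tumors were compared between the mice, on UMI sums per tumor, with edgeR's quasi-likelihood F test and Benjamini-Hochberg adjustment over 5497 genes. Only 1 gene passed an adjusted p of 0.05 (0.0182%): Cwc25, a splicing factor gene, with an adjusted p of 0.0209. It stood at 109 to 180 CPM in the 4 tumors of mouse A, 139 to 142 in the 2 of mouse B and 48.6 to 58.5 in the 4 of mouse C. The tumors of mouse C did not overlap with the others, with a log2 difference of −1.37 from mouse A, while mouse B differed from mouse A by −0.01. At an unadjusted p under 0.05 there were 471 genes (8.57%), and DESeq2, an alternative tool, called 82 of the 1890 genes to which it gave an adjusted p (4.34%).

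**Figure D5:**
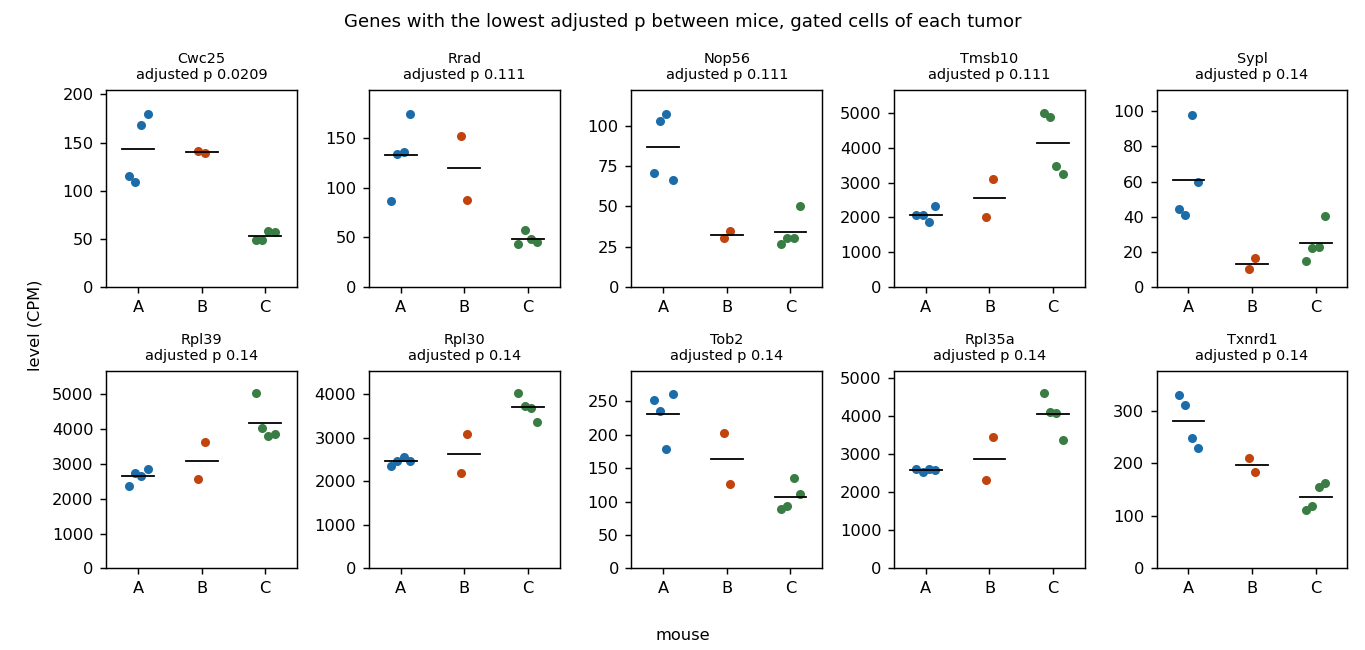
Level (CPM) in the gated cells of each tumor, by mouse, of the 10 genes with the lowest adjusted p between mice (edgeR's quasi-likelihood F test). Each point is a tumor, the line is the mean over the tumors of a mouse, and Cwc25, the gene that passed the threshold, lies below 59 CPM in all 4 tumors of mouse C.

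The genes that followed missed the threshold. Rrad, a small GTPase gene, was at 132 ± 35.6, 120 ± 45.1 and 48.6 ± 6.40 CPM in mice A, B and C (adjusted p 0.111 in the same edgeR test), and Tmsb10, encoding the actin-binding thymosin beta 10, at 2083 ± 188, 2565 ± 774 and 4142 ± 915 (adjusted p 0.111). The ribosomal protein genes Rpl39, Rpl30 and Rpl35a were among the 10 genes with the lowest adjusted p, each at 0.140. No gene of the fixed lists was called. Cd209a was at 85.2 ± 49.2, 73.6 ± 10.3 and 115 ± 53.0 CPM in mice A, B and C (adjusted p 0.895 in the same edgeR test), and Clec10a at 119 ± 18.2, 121 ± 6.88 and 152 ± 80.9 (adjusted p 0.861).

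Measures of RNA are also given by mouse, with no test. Ribosomal protein genes made up 21.0% to 22.0% of the gated cells' UMIs in mouse A, 19.9% to 23.0% in mouse B and 23.3% to 25.2% in mouse C, and mitochondrial genes 2.96% ± 0.856, 2.29% ± 0.507 and 1.84% ± 0.518 (SD). Over all kept barcodes, Cwc25 ranged over 51.8 to 68.5 CPM in mouse A, 55.7 to 68.6 in mouse B and 45.1 to 63.7 in mouse C, and these overlapped. In the macrophage gate Cwc25 ranged over 76.7 to 139 CPM in mouse A, 78.2 to 105 in mouse B and 57.0 to 73.0 in mouse C, and in the monocyte gate over 55.8 to 96.9, 84.7 to 85.6 and 49.4 to 80.8, where mice A and C overlapped. The part of RNA quality in the result was not tested, and mouse, age and collection cannot be told apart. The call held in 11 of 16 alternatives and was lost without tumor 1, 2, 3, 4 or 8, with the highest adjusted p, 0.207, without tumor 2. For the genes that followed, in the macrophage gate Rrad was at 32.5 ± 3.34, 43.1 ± 4.04 and 20.1 ± 2.48 CPM in mice A, B and C, while in the monocyte gate its ranges overlapped, and Tmsb10 in the monocyte gate was at 1998 ± 214, 2354 ± 1135 and 3203 ± 370. Over all kept barcodes, Rrad ranged over 20.7 to 30.3, 26.3 to 36.5 and 12.1 to 19.3 CPM in mice A, B and C. Tmsb10 ranged there over 891 to 1333, 962 to 1921 and 1492 to 2349 CPM.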

How the data were processed

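Single cells of 10 colon tumors and 3 adjacent mucosa samples were profiled with droplet-based 3' scRNA-seq. The authors deposited filtered matrices of UMI counts per gene and barcode (32285 genes), made with Cell Ranger 6.0.0 on the mm10 build per the submitters' processing notes. Counts were used as deposited. Quality limits were 500 UMIs and 200 genes as minima and a mitochondrial share below 25%. They left 118892 of 137591 barcodes, and the UMI minimum alone removed none. The members and gene lists were chosen with earlier results of these data known. Of the genes on the 31 lists, Clec7a and Mx1 were not analysed here, and Jaml was analysed under that name and not its older one, Amica1. Doublets were kept, and removal of the barcodes with the highest simulated doublet scores (0.8% per 1000 barcodes) was an alternative.

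Samples were grouped by the labels for tissue and mouse. Gated cells were clustered with the Leiden method (leidenalg 0.10.2, 1500 variable genes, 20 components, 15 neighbors, resolution 1). Leading genes had the largest fold over the other gated cells, with 10 CPM added, among genes found in at least 25% of a cluster's cells. Shares were compared with exact permutation tests, and their Clopper-Pearson 95% intervals cover counting error only. UMI sums per tumor were tested between mice with edgeR 4.0.16 (quasi-likelihood F test, genes that passed edgeR's own filter on low counts), with DESeq2 1.42.0 as an alternative. Other gates were compared within tumors as CPM plus 1, where both gates had 20 cells. The p-value for tissue rests on exchanging the mucosa label within each mouse. Those between mice set the mice against the spread of tumors within a mouse. Tumors of a mouse are not independent animals. Genes named were the detected list genes, the leading genes of clusters and, per comparison among named genes with at least 50 UMIs, the 10 with the largest lowest fold in each direction, or the 10 with the lowest adjusted p between mice. The share among dendritic gates and gene differences between tumor and mucosa were not tested, for want of mucosa cells. Alternatives covered limits on barcodes, the gate's limits, depth, tools, added CPM, cluster settings and single libraries or mice left out. The gene test was checked on counts simulated with a single common dispersion and genes changed in mouse C. It recovered 38 of 97 tested genes changed 2-fold and 91 of 97 changed 4-fold, with 8 false calls among 137. Most 2-fold changes were thus missed there. One list gene is not reported here.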

Additional observations from a re-analysis of the deposited data

Results flagged for a closer look

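Over the 10 tumors, 45 quantities of the gated cells were screened for a tumor that stood apart from the rest, and 7 were found. The limit used is passed by about 1 in 20 quantities if these are independent and normally distributed. List sums with shared genes and cluster shares of the same cells are not independent, so the 2 cannot be compared. The median UMI count of the gated cells was 13116 in tumor 8, against 7037.5 to 9330 in the others. The summed plasmacytoid dendritic cell markers were lowest in tumor 6, at 209 CPM against 325 to 430. The neutrophil markers reached 6715 CPM in tumor 10 against 290 to 3401, and 7.84% of the gated cells of tumor 10 were in cluster 8, led by S100a8. In the same tumor, Zbtb46 was at 1.66 CPM, against 13.7 to 25.3 in the others, with 85 UMIs over the 10 tumors together. Its level in a single tumor thus rests on few molecules. The T cell markers summed to 55.6 CPM in tumor 9 against 0 to 17.3, and the chemokine and migration receptors to 1080 CPM in tumor 9 against 469 to 771, where cluster 5, led by Ccl22 and Ccr7, took 18.6% of the gated cells. The proliferation genes summed to 1254 CPM in tumor 7, against 229 to 733 in the others. No cause was tested for any of them.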

How the results depend on the processing

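The higher share of gated cells in tumors kept its direction in all 24 alternatives, with differences of 0.167 (Flt3 at least 2) to 0.655 percentage points. None of these alternatives relaxed the limit on Cd79a. The direction was known when the rule was proposed, so its being kept is a description. Leaving out a tumor or a mouse gave 0.456 to 0.655, with exact permutation p of 0.0667 without mouse A (0.655) or mouse C (0.456), the smallest those designs allow. Without clusters 2, 5, 6, 8 and 9, chosen after seeing the data, it was 0.306, with no test. With no replicate block, that is without pairing tumors and mucosa by mouse, it was 0.563 (exact permutation p 0.0105). Between mice, the F of the share was 4.20 with barcodes under 2000 UMIs left out and the others thinned to 2000 (exact permutation p 0.0444) and 1.71 to 6.83 with a tumor left out, highest without tumor 4 (exact permutation p 0.0254). The count of genes that differed between mice, 1 with edgeR, was the least stable: 82 with DESeq2, 102 with no filter on low counts, 4 with the highest doublet scores removed, 14 without clusters 8 and 9 (chosen after seeing the data), and 0 to 30 with a tumor left out, 30 without tumor 10 and 0 without tumor 2, 3, 4 or 8. Of 106 alternative counts against other gates, 105 were within 1.5 times the reported count, and the exception was 107 genes higher than in the macrophage gate with 5 CPM added, against 162. Causes were not tested. Depth limits the gate itself, since 411 of 581 cells rest on 1 UMI of Flt3.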

Other observations

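Of the 15 genes on the cytokine list, Il1b had the most UMIs in the gated cells. Il1b was found in 90.4% of the tumor cells, at 1374 to 2938 CPM (median 2155), with a mean of 2139 ± 505 (SD, n = 10). Its level was above that of all kept barcodes in only 2 of 10 tumors. Tgfb1, a cytokine that restrains T cells, was at 193 ± 56.1 CPM against 125 ± 14.3 in all kept barcodes and was higher in 10 of 10 tumors. Among the other cytokine genes, Il18 had 133 UMIs in the 571 tumor cells, Il12b had 101, Ebi3 had 73, Il6 had 40, Il10 had 13 and Il23a had 8. Il12b was at 165 CPM in tumor 8 and at most 15.2 in any other tumor, and Il10 at 34.2 CPM in tumor 6 and at most 5.25 elsewhere. Of 14 chemokine genes, Ccl17, Ccl22, Cxcl9, Cxcl10 and Cxcl16 were above the whole library in 10 of 10 tumors, with Cxcl10 at 162 to 1679 CPM. The share of all genes above it was not computed, so these counts and those of the next paragraph are descriptions. Others were below it, as Cxcl2, at 694 ± 641 CPM against 3691 ± 973 and above in 0 of 10 tumors, and Ccl4, above in 1. The summed list was at 1297 to 4995 CPM against 3244 to 7834 in all kept barcodes. Aldh1a2, which makes retinoic acid, had 10 UMIs, in 1.75% of the cells.

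Of 7 natural killer and innate lymphoid genes, Klrk1 and Il7r were above the whole library in 10 of 10 tumors, and Rora, Klrb1c, Gata3, Ncr1 and Il22 in 0 or 1. Klrk1, encoding the receptor NKG2D, had a UMI in 59.4% of the tumor cells and stood at 78.7 to 206 CPM, against 12.6 ± 4.92 (SD, n = 10) in all kept barcodes. The costimulatory gene Cd86, a ligand for the T cell receptor CD28, was at 155 to 341 CPM against 58.6 ± 10.0. It was above the whole library in 10 of 10 tumors.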
